A study of Macaca mulatta with 24 samples.

Results

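The data described here are the 12 arrays of deprived layers of the lateral geniculate nucleus (LGN), 8 from parvocellular layers and 4 from magnocellular layers, out of 24 arrays in all. They were chosen by their labels alone: every array whose title names a deprived layer was kept, with layers 3 to 6 as parvocellular and layers 1 and 2 as magnocellular. The question was which differences between the layer classes were present in layers that had received no patterned input from their eye. The samples came from 2 rhesus macaques whose left eye was deprived from birth, either by an opaque contact lens worn for 2 months or by tarsorrhaphy (surgical closure of the lids) for 4 months, with 1 animal each. The LGNs were taken 2 or 4 months after deprivation began at birth, so the animals also differed in age. Duration, age, method and animal therefore cannot be told apart. Both LGNs of each animal were used. On the side of the deprived eye (ipsilateral) its layers are 2, 3 and 5, and on the opposite side (contralateral) they are 1, 4 and 6. Each of the 4 LGNs thus gave 1 magnocellular and 2 parvocellular arrays. All deprived magnocellular arrays of the ipsilateral side were thus layer 2 and all of the contralateral side layer 1. Layers were cut from several sections by laser capture, avoiding the koniocellular zones, and each pool of RNA was amplified in 2 rounds and hybridized to 1 Rhesus Macaque Genome Array. The other 12 arrays, from the nondeprived layers of the same LGNs, were used for comparison.

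The LGN relays the output of the retina to the visual cortex. Its parvocellular layers hold small relay cells that are driven by midget ganglion cells, respond in a sustained way and carry color and fine detail, whereas its magnocellular layers hold large relay cells that are driven by parasol ganglion cells, respond transiently and carry motion and low contrast. Both classes of layer also hold GABAergic interneurons and glia. Voltage-gated sodium channels, which are built from a pore-forming alpha subunit and auxiliary beta subunits, start and carry the action potential, and their gating shapes how a relay cell turns synaptic input into spikes.

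Signals are in the arbitrary units of the authors' GCOS software, and differences are log2 fold changes, parvocellular minus magnocellular, from a limma model with the LGN as a block, so that each difference was taken within an LGN. P-values are from limma and were adjusted with Benjamini-Hochberg over 37623 probe sets, and a difference was called where the adjusted p was below 0.05. With only 2 animals, p-values here speak of variation among captured layers, not among animals. Where 4 magnocellular signals are listed, the order is layer 1 at 2 months, layer 1 at 4 months, layer 2 at 2 months and layer 2 at 4 months. Parvocellular signals are given as the range and median of 8 arrays. In captured tissue, fewer cells of a type and less RNA per cell cannot be told apart.

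One array stood apart. In the layer 2 array of the ipsilateral LGN at 2 months the ratio of the 3' to the 5' GAPDH probe sets, which rises as RNA degrades, was 50.8, whereas it was 3.95 to 8.91 in the other 3 magnocellular arrays and 2.65 to 7.88 in the 8 parvocellular arrays. Its log2 signals had a mean correlation of 0.811 with those of all remaining arrays, where the 11 other deprived arrays reached 0.888 to 0.913. The actin ratio exceeded 1000 in 3 of 4 magnocellular and 2 of 8 parvocellular arrays. Fits without this array, with the GAPDH ratio or the actin ratio as a covariate and with array weights were made beside the one reported, and calls lost in the first 2 are given with the genes. Summed signals of 8 neuronal marker genes on the array were 106312 to 131682 in parvocellular and 118160 to 151242 in magnocellular arrays. Relay cell markers summed to 51213 to 74423 and to 57149 to 82791, so that both classes of layer carried them at overlapping levels. The 3 genes linked to parvocellular cells (FOXP2, BDNF and HTR1B) were near the floor of the array, with summed signals of 137 to 301 in parvocellular and 279.5 to 715 in magnocellular arrays. The sum of 715 was that of the degraded array, and the other magnocellular sums reached at most 374. None of the 3 genes was called, and 1 had an unadjusted p below 0.05.

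Of 37623 probe sets, 86 differed between deprived parvocellular and magnocellular layers (0.229%), 59 with higher signals in parvocellular layers (0.157%) and 27 with higher signals in magnocellular layers (0.0718%). The difference ran the same way in 4 of 4 LGNs for 86 of these 86 probe sets, where over all probe sets 5.67% were higher in parvocellular and 10.4% higher in magnocellular layers in 4 of 4 LGNs, and the 8 parvocellular signals did not overlap the 4 magnocellular signals for 37 of the 59 and 25 of the 27. Over all probe sets, groups that did not overlap were found with parvocellular signals higher in 0.412% and with magnocellular signals higher in 0.5%. The calls were made from these same signals within LGNs, so neither the shared direction nor the lack of overlap adds support to them. At an unadjusted p below 0.05 the count was 4018 (10.7%). The median log2 fold change over all 37623 probe sets was -0.10. Of the 86, 55 carried a single gene symbol, for 37 genes higher in parvocellular and 15 higher in magnocellular layers. Without the degraded array 137 were called, 102 and 35 in the 2 directions, and 66 of them were among the 86. With the GAPDH ratio as a covariate 20 were called, 16 and 4, of which 13 were among the 86. When arrays were scaled to the same median instead, 49 were called, 41 of them among the 86, with 44 of the 49 (89.8%, against 68.6%) higher in parvocellular layers.

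Of the sodium channel subunits tested, SCN3B and SCN2A were called, both higher in parvocellular layers. SCN3B, which encodes the auxiliary beta-3 subunit, had signals of 398, 327, 401 and 370.4 in magnocellular arrays and from 1305 to 2890.1 with a median of 2262 in parvocellular arrays. The 2 groups were far apart, with the highest magnocellular signal far below the lowest parvocellular signal, and the log2 fold change was 2.47 (SE 0.21, limma adjusted p = 0.000104). A second probe set of SCN3B gave 2.61 (SE 0.29, limma adjusted p = 0.00123), while another, dim one gave 0.86 (adjusted p = 0.538). SCN2A, which encodes the alpha subunit NaV1.2, had signals of 1517, 1212, 432 and 1928 and from 2237 to 3871 with a median of 2896. All 8 parvocellular signals lay above all 4 magnocellular signals, and the lowest of the latter came from the degraded array. The log2 fold change was 1.43 (SE 0.25, limma adjusted p = 0.025), and without that array it was 1.02 (adjusted p = 0.0216). A dim second probe set of SCN2A gave 0.25 (limma adjusted p = 0.873).

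FGF11 went the other way. It encodes a fibroblast growth factor homologous factor, a member of a family of intracellular proteins that bind the alpha subunits of sodium channels. Its signals were 1746, 1349.7, 2546 and 1095 in magnocellular arrays and from 180.2 to 494 with a median of 326 in parvocellular arrays. The lowest magnocellular signal was more than double the highest parvocellular one, and the log2 fold change was -2.27 (SE 0.21, limma adjusted p = 0.000134). A dim second probe set gave -0.44 (adjusted p = 0.67). A fit that held the GAPDH ratio constant passed 6 of the 24 leading genes of both directions (SCN3B, BHLHE22, PCDH20, AGT, NDST4 and FGF11), and the other 18, SCN2A among them, did not. SCN3B, FGF11 and AGT, the angiotensinogen gene, were the 3 of the 24 that also passed with no trend of the spread with the signal, with the GAPDH ratio as a covariate and without the degraded array. The list of sodium channel subunits and the factors that bind them had 10 genes tested, of which 2 subunits were higher in parvocellular layers, 1 factor, FGF11, was higher in magnocellular layers and 7 were not called, where 0.357% of the 12056 genes tested, with 1 probe set each, were called. The list was chosen with earlier results of these data known, so its share cannot be read as an excess of calls. Among the 7, SCN1A, the alpha subunit NaV1.1, had means of 4747 ± 576 (SD, n = 8) and 7190.1 ± 1459 (SD, n = 4) with a log2 fold change of -0.59 (limma adjusted p = 0.202), and FGF12, FGF13 and FGF14, the other homologous factors, lay between 0.13 and 0.47.

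**Figure D1:**
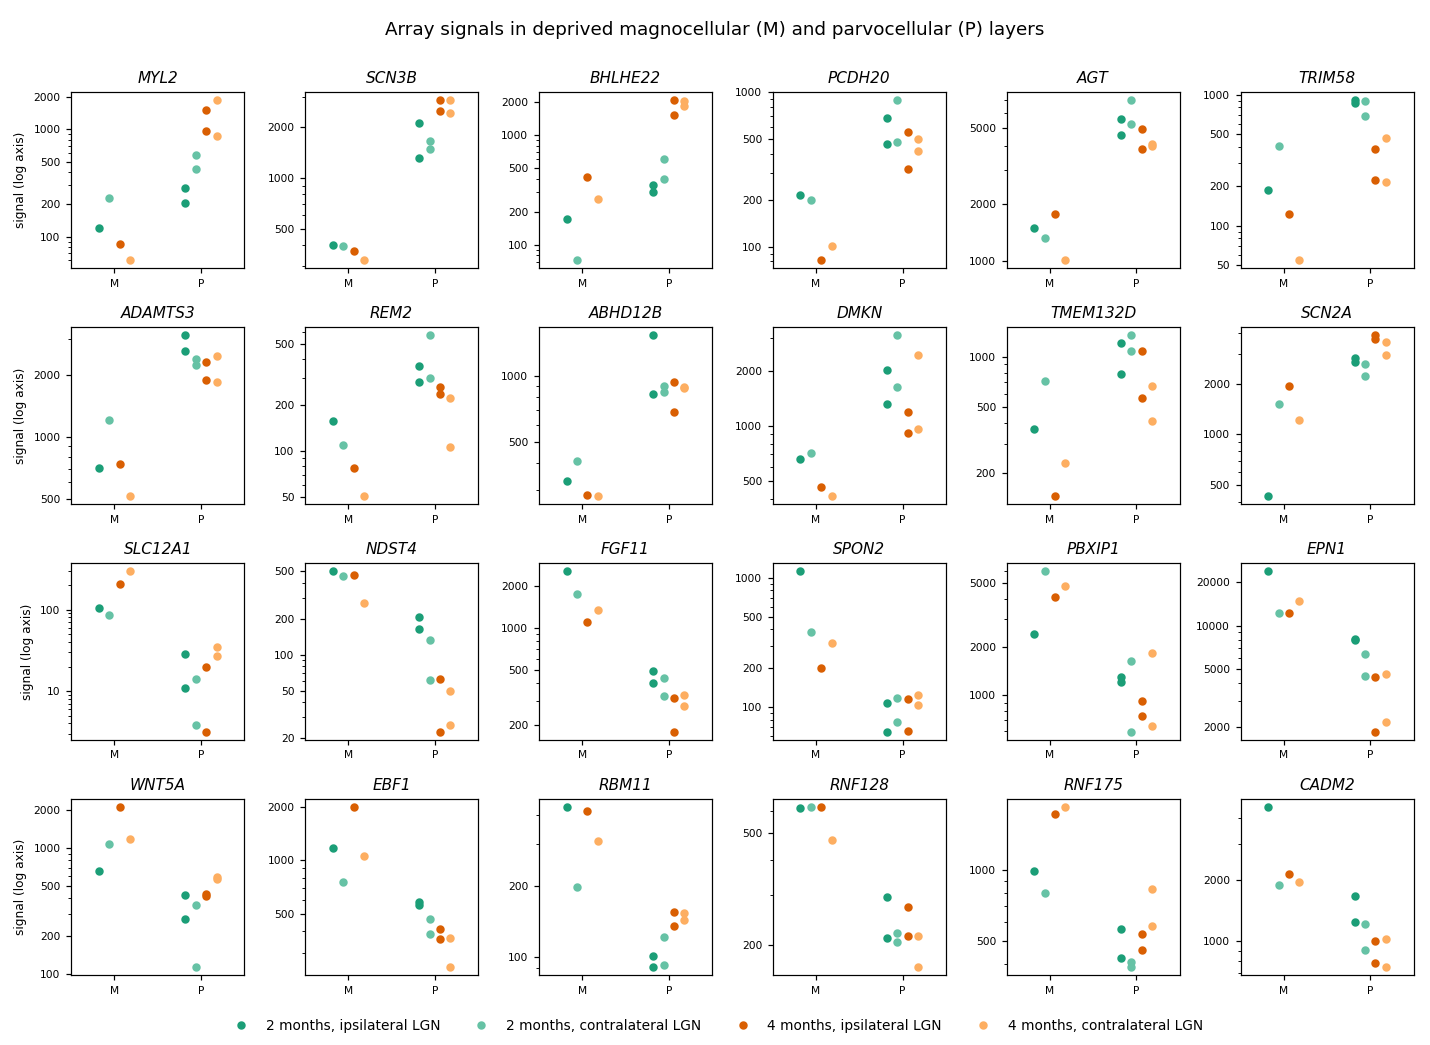
Signal of 24 genes in the 12 deprived arrays, on log axes (GCOS units), with magnocellular arrays (M, n = 4) at left and parvocellular arrays (P, n = 8) at right in each panel; 1 point is 1 array, colored by LGN. The upper 12 genes were called higher in parvocellular and the lower 12 higher in magnocellular layers, and the groups did not overlap for 7 and 11 of them.

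The 12 genes with the largest called difference toward parvocellular layers spanned 2.70-fold to 6.01-fold. MYL2, a regulatory light chain of myosin known from heart and slow muscle, had signals of 226, 60.6, 121 and 85.5 in magnocellular arrays and from 205 to 1881 with a median of 719 in parvocellular arrays. The lowest parvocellular signal fell below the highest magnocellular one, so that the groups overlapped across LGNs. The difference was positive in each LGN, which was a condition for naming the gene. The log2 fold change was 2.59 (SE 0.47, limma adjusted p = 0.0327). BHLHE22, a basic helix-loop-helix transcription factor of neurons, had signals of 72.6, 260.1, 172 and 414 and from 301 to 2102 with a median of 1069.9. The 4 parvocellular signals at 4 months were 1538 to 2102 and the 4 at 2 months 301 to 602, a level difference between the animals that was shared in part by the magnocellular arrays, and the log2 fold change within LGNs was 2.17 (SE 0.28, limma adjusted p = 0.00439). REM2, a small GTPase that inhibits calcium channels, gave 1.56 (SE 0.29, limma adjusted p = 0.0405), with overlapping groups.

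PCDH20, a protocadherin, had signals of 202, 101, 216 and 81.8 in magnocellular and from 318 to 896 with a median of 486 in parvocellular arrays, with no overlap and a log2 fold change of 1.90 (SE 0.26, limma adjusted p = 0.00892). ADAMTS3, a secreted protease that processes procollagen and reelin, had signals of 1213, 517, 706 and 742 and from 1851 to 3134 with a median of 2374. Here too the groups did not overlap, and the log2 fold change was 1.63 (SE 0.20, limma adjusted p = 0.0026). TMEM132D, a membrane protein, gave 1.44 (SE 0.28, limma adjusted p = 0.0466) and lost its call without the degraded array (adjusted p = 0.0725).

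AGT encodes angiotensinogen, the precursor of the angiotensins, which is made in brain mainly by astrocytes. Its signals were 1316, 1010.5, 1492 and 1755 in magnocellular arrays and from 3859 to 7052 with a median of 4775 in parvocellular arrays, and its log2 fold change was 1.82 (SE 0.18, limma adjusted p = 0.000245). All 8 parvocellular signals exceeded double the highest magnocellular signal. AGT was the 1 of 10 astrocyte markers tested that passed. The list summed to 83201 to 115326 in parvocellular and to 96826 to 138827 in magnocellular arrays, and 4 other members had an unadjusted p below 0.05, each with higher magnocellular signals. Of these, GLUL and SLC1A3, which take up and convert glutamate, had log2 fold changes of -0.40 (limma adjusted p = 0.361) and -0.52 (limma adjusted p = 0.397). The median over the 10 astrocyte genes was -0.10.

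The remaining 3 of the 12 were TRIM58, a ubiquitin ligase known from red cells, with 1.75 (SE 0.30, limma adjusted p = 0.0256), ABHD12B with 1.5 (SE 0.21, limma adjusted p = 0.00932) and DMKN, a secreted protein known from epidermis, with 1.5 (SE 0.26, limma adjusted p = 0.0278). TRIM58 lost its call without the degraded array (adjusted p = 0.0631), while the other two kept theirs. The other probe sets of TRIM58, both dim, gave 1.92 (limma adjusted p = 0.179) and 0.15 (limma adjusted p = 0.913).

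From the gene lists, HTR7, RSPO3 and KLF10 were also called higher in parvocellular layers. HTR7, a serotonin receptor that raises cyclic AMP, had signals of 216, 284, 218 and 216 in magnocellular and from 314 to 1100.2 with a median of 469.7 in parvocellular arrays. The magnocellular signals were tightly grouped and all lay below the parvocellular ones, and the log2 fold change was 1.26 (SE 0.24, limma adjusted p = 0.0429). The other probe sets of HTR7, all dim, gave -0.20, 0.16 and -0.75 (limma adjusted p = 0.952, 0.886 and 0.712). RSPO3, a secreted enhancer of Wnt signaling, had signals of 659.5, 639.6, 511 and 571 and from 1029 to 2404 with a median of 1406, with no overlap and a log2 fold change of 1.35 (SE 0.21, limma adjusted p = 0.0139). KLF10, a zinc finger transcription factor of the early response to growth factors, gave 1.05 (SE 0.17, limma adjusted p = 0.0177) with overlapping groups. All 3 kept their call without the degraded array and lost it with the GAPDH covariate, at adjusted p = 0.107 for HTR7, 0.0775 for RSPO3 and 0.221 for KLF10.

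In magnocellular layers the 12 leading genes spanned 2.34-fold to 11.6-fold. The largest value, -3.53 (SE 0.67, limma adjusted p = 0.0451) for SLC12A1, a sodium-potassium-chloride cotransporter of the kidney, rested on parvocellular signals of 3.18 to 34.7, which are too low to measure, against 85.7, 294, 105 and 208. With signals under 50 set to 50, the log2 fold change was -1.61 (adjusted p = 0.039). That floor set every parvocellular signal to 50 and removed the spread of the group, so its p-value cannot check the call. Another, dim probe set gave -1.25 (limma adjusted p = 0.648).

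NDST4, an enzyme that sulfates heparan sulfate, had signals of 458, 271, 500.03 and 465 in magnocellular and from 22.6 to 206 with a median of 61.7 in parvocellular arrays. The groups did not overlap, though parvocellular signals were low, and the log2 fold change was -2.58 (SE 0.41, limma adjusted p = 0.015). SPON2, a secreted matrix protein, had signals of 381, 315, 1126 and 199.6 and from 64.8 to 124 with a median of 105. Its highest magnocellular signal came from the degraded array. The log2 fold change was -2.11 (SE 0.38, limma adjusted p = 0.0325), and without that array -1.56 (adjusted p = 0.0714), so that the call was lost.

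WNT5A, a ligand of noncanonical Wnt signaling, had signals of 1068, 1178, 659 and 2115 in magnocellular and from 113 to 593 with a median of 418 in parvocellular arrays. The groups did not overlap, and the log2 fold change was -1.68 (SE 0.32, limma adjusted p = 0.0431). Its other 2 probe sets pointed the same way, with -1.68 (limma adjusted p = 0.0456) and, at low signal, -2.90 (limma adjusted p = 0.114). RSPO3 and WNT5A were the 2 called genes of 29 tested in Wnt and BMP signaling, 1 in each direction, beside 0.357% of all genes tested.

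Nuclear factors were represented by EBF1, a transcription factor, with signals of 752, 1053, 1170.0 and 1992 in magnocellular and from 249.8 to 586 with a median of 398 in parvocellular arrays, no overlap and a log2 fold change of -1.51 (SE 0.24, limma adjusted p = 0.0177). PBXIP1, a protein that binds PBX homeodomain factors, had signals of 5956, 4815, 2413 and 4089 and from 594 to 1852 with a median of 1067. The groups did not overlap, and the log2 fold change was -1.99 (SE 0.32, limma adjusted p = 0.0177), although the gene's second brightest probe set gave -0.33 (adjusted p = 0.588). RBM11, an RNA-binding protein, gave -1.41 (SE 0.27, limma adjusted p = 0.0457) and lost its call without the degraded array (adjusted p = 0.104). A dim second probe set of RBM11 gave 0.03 (limma adjusted p = 0.991).

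EPN1, epsin 1 of clathrin-mediated endocytosis, had signals of 12315, 14912, 23751 and 12241 in magnocellular and from 1848 to 8055 with a median of 4558 in parvocellular arrays. No parvocellular array reached the lowest magnocellular signal, and the log2 fold change was -1.78 (SE 0.26, limma adjusted p = 0.011). A second probe set of moderate signal gave 0.27 (adjusted p = 0.721), so that the probe sets of this gene disagreed. The ubiquitin ligase RNF128 gave -1.38 (SE 0.21, limma adjusted p = 0.0139) and the RING finger gene RNF175 gave -1.30 (SE 0.20, limma adjusted p = 0.0139). CADM2, a synaptic adhesion molecule, had signals of 1879, 1954, 4529.8 and 2124 and from 746 to 1664 with a median of 1014. The degraded array held the highest signal, and the log2 fold change was -1.23 (SE 0.19, limma adjusted p = 0.0139) with it and -1.09 (adjusted p = 0.0282) without it, while another probe set gave -0.13 (adjusted p = 0.891).

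Some called probe sets disagreed with brighter probe sets of their gene, and the following were chosen after their values were seen. A probe set of GPI, a glycolytic enzyme, had signals of 406, 516, 446 and 499 in magnocellular and from 1395 to 3791 with a median of 2617 in parvocellular arrays, and its log2 fold change was 2.45 (SE 0.20, limma adjusted p = 0.000104). The brighter GPI probe set gave 0.38 (adjusted p = 0.489), so no change of the gene as a whole was shown. For TCF7L2, a thalamic transcription factor of the Wnt pathway, 1 of 6 probe sets was called, at 1.35 (adjusted p = 0.0191), and the brightest gave 0.04 (adjusted p = 0.933). Of 4 CERK probe sets 1 was called, at -1.32 (adjusted p = 0.0243), and the brightest gave -0.25 (adjusted p = 0.629). With the GAPDH covariate the GPI probe set kept its call (adjusted p = 0.00408), and those of TCF7L2 (adjusted p = 0.062) and CERK (adjusted p = 0.427) lost theirs. The CERK probe set also lost it without the degraded array (adjusted p = 0.0571). Whether such probe sets read different transcripts was not tested.

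Over 25 lists of functions, 487 genes were tested and 8 were called, 5 higher in parvocellular layers (SCN3B, SCN2A, HTR7, RSPO3 and KLF10) and 3 higher in magnocellular layers (FGF11, SPON2 and WNT5A). Over all 12056 genes tested, 43 (0.357%) were called, 30 and 13 in the 2 directions. The 8 came from 5 lists: sodium channels and their binding factors (3 of 10), receptors for monoamines, acetylcholine and peptides (1 of 26), perineuronal net and matrix (1 of 25), Wnt and BMP signaling (2 of 29) and immediate early and activity-regulated genes (1 of 27). As all lists were chosen with earlier results of these data known, their shares do not test for an excess over all genes. The sodium channel list had a median log2 fold change of 0.24, beside -0.03 over the 12056 genes tested, with values on both sides of 0. The other 20 lists had no called member in the limma fit. Of their 376 genes, 61 (16.2%) had an unadjusted p below 0.05, 34 higher in parvocellular and 27 higher in magnocellular layers, beside 11.5% of the 12056 genes, and their medians lay between -0.23 for ion pumps and transporters and 0.15 for thalamic and layer-class transcription factors. With signals under 50 set to 50, 4 of the 487 genes were called, with the GAPDH ratio as a covariate 3, and without the degraded array 13.

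Several list members came near the threshold without passing it. NEFH, the heavy neurofilament that is used to stain magnocellular cells, had signals of 27547, 54827, 68373 and 34024 in magnocellular arrays and from 20848 to 29735 with a median of 23218 in parvocellular arrays. Magnocellular signals were above the parvocellular mean in each of the 4 LGNs, with a log2 fold change of -0.85 (SE 0.19, limma adjusted p = 0.101). The highest came from the degraded array, and the lowest, 27547, was close to the 27536 of layer 6 in its LGN. The list of magnocellular-linked markers, which holds NEFH, had 7 genes tested and 0 called. Of these, 4 had positive and 3 negative log2 fold changes, with a median of 0.10, and 4 had an unadjusted limma p below 0.05. The other gene tested from the neurofilament list gave 1.03. NTRK3, the receptor of neurotrophin 3, showed a log2 fold change of 0.94 (SE 0.20, limma adjusted p = 0.0734) with parvocellular signals higher in each LGN. ALDH1A2, an enzyme that makes retinoic acid, had signals of 323, 134, 180.1 and 110.1 and from 153 to 1004 with a median of 653, and its log2 fold change was 1.81 (SE 0.36, limma adjusted p = 0.0547). ITPR1, a calcium release channel of the endoplasmic reticulum, had signals of 1583, 1813, 1029.7 and 2048 and from 242 to 891 with a median of 677. These did not overlap, and the log2 fold change was -1.38 (SE 0.27, limma adjusted p = 0.0575). The guidance molecule SEMA5A gave 1.01 (SE 0.22, limma adjusted p = 0.0908) and the prohormone convertase PCSK2 gave -0.82 (SE 0.18, limma adjusted p = 0.101).

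With 1 probe set per gene, the lists of energy supply had no called member, which at 0.357% of all genes is no result about them, and the called GPI probe set described above is not the one that stands for that gene here. Of 42 genes of oxidative phosphorylation, 0 were called by limma and 3 had an unadjusted p below 0.05, and their log2 fold changes ran from -0.56 to 0.49 with a median of -0.06. The 17 glycolysis genes ran from -0.69 to 0.45 with 0 called and 1 at an unadjusted p below 0.05. The 30 potassium channel genes had a median of 0.00, 0 called and 6 with an unadjusted p below 0.05, and the one with the smallest p was the glial channel KCNJ10 at -0.80 (SE 0.21, limma adjusted p = 0.182). Glutamate receptors (10 tested) and receptors for GABA and glycine (9 tested) had 0 called members and 1 each with an unadjusted p below 0.05, where 11.5% of all genes were below it.

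**Figure D2:**
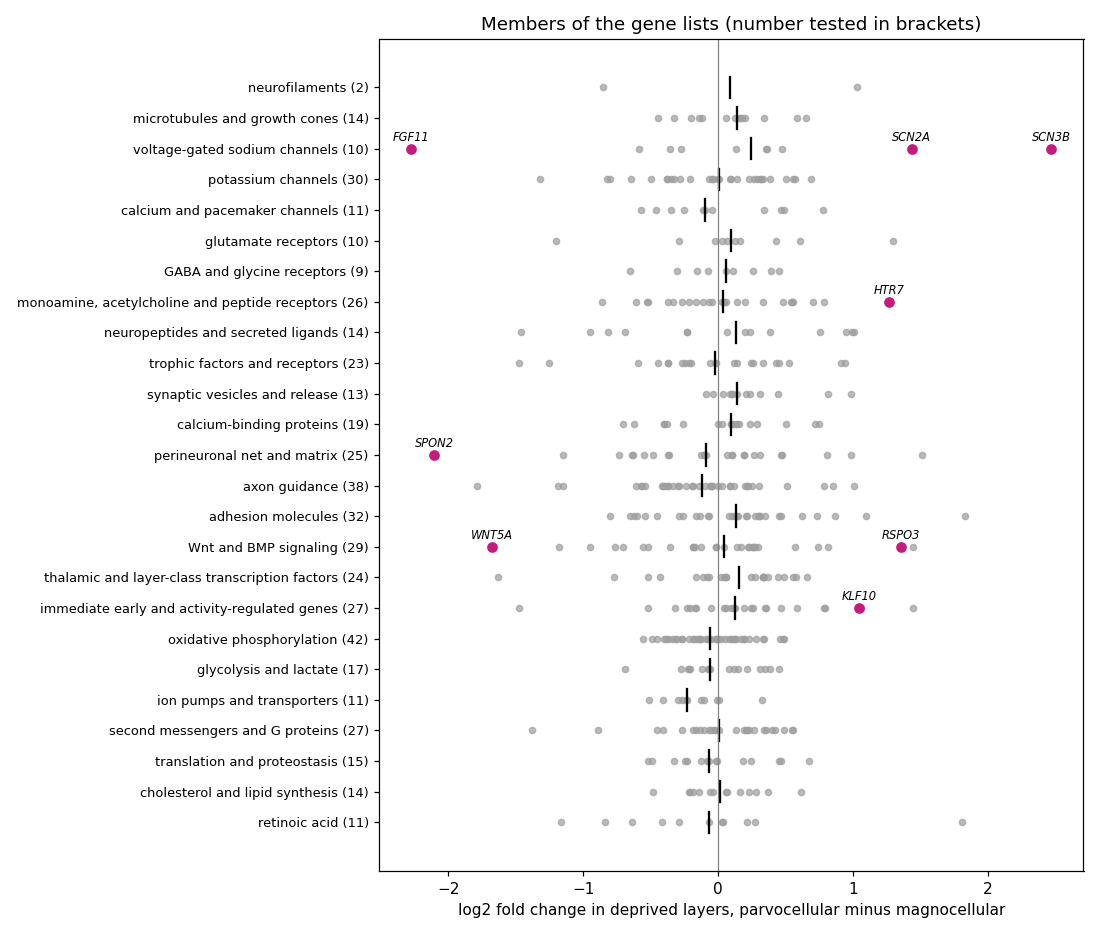
Log2 fold change (parvocellular minus magnocellular, deprived layers) of each tested member of 25 gene lists, 1 point per gene, with the list median as a black bar. The 8 called genes are colored and named, and the remaining members are grey.

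Markers of other cells were compared between the same arrays. The 6 GABAergic markers on the array summed to 9827 to 17562 in parvocellular and 18777 to 24902 in magnocellular arrays, with no overlap between the groups. The sum was mostly GAD1, the enzyme that makes GABA, whose signals were 19302, 24134, 21949 and 16015 in magnocellular and from 8778 to 15621 with a median of 14138 in parvocellular arrays. The log2 fold change of GAD1 was -0.61 (SE 0.18, limma adjusted p = 0.26) and 0 of the 6 markers were called, 2 with an unadjusted p below 0.05. Of the 6, 4 had negative and 2 positive log2 fold changes, from -1.63 to 0.68, so the sum does not stand for every member. The part of GABAergic cells in the differences described above was not tested. Of the other 12 marker lists, the astrocyte list had 1 called member and 11 had none. Oligodendrocyte markers summed to 59486 to 87324 and 64745 to 109913, microglial markers to 7613 to 10609 and 8505 to 13216, and endothelial and pericyte markers to 7251 to 12282 and 7629 to 12003 in parvocellular and magnocellular arrays. Markers of meninges, at 1125 to 2381 and 1533 to 2128, and of blood, at 442 to 1028 and 363 to 944, were low in both. Of the koniocellular markers, CALCR and CAMK2A were low, with means of 61.9 and 118 and of 24.05 and 63.7. The degraded array held the highest magnocellular signal of both, 199 for CALCR and 175 for CAMK2A. The other magnocellular arrays had 84.5 to 102 and 6.54 to 58.4. PENK showed a log2 fold change of 0.06 (SE 0.17, limma adjusted p = 0.913).

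**Figure D3:**
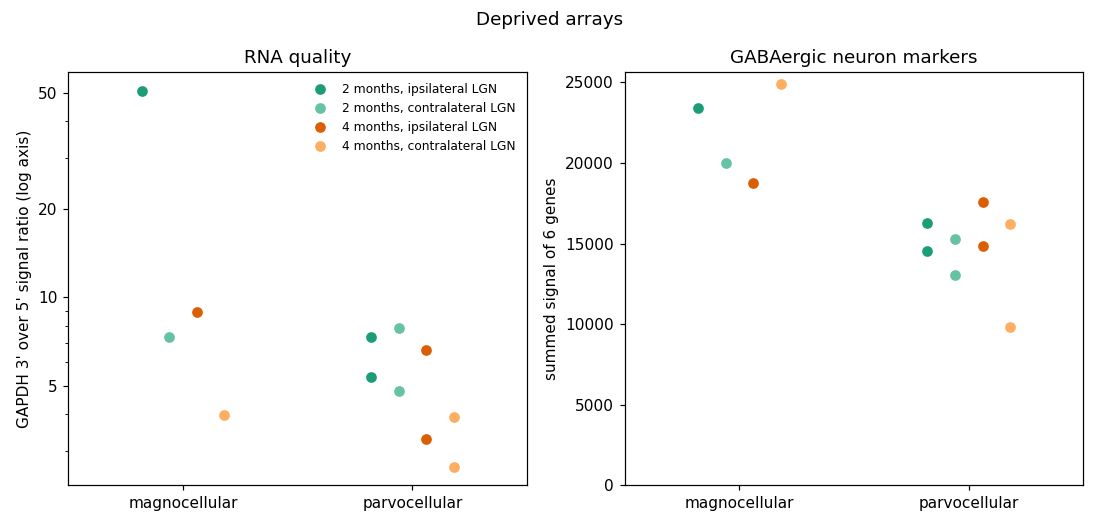
GAPDH 3' over 5' ratio on a log axis (left) and summed signal of 6 GABAergic marker genes (right) in the 12 deprived arrays, 1 point per array, colored by LGN. One magnocellular array has a ratio of 50.8 while the other 11 lie between 2.65 and 8.91, and the magnocellular sums (18777 to 24902) lie above the parvocellular sums (9827 to 17562). The sum was mostly GAD1, and 2 of the 6 genes had positive log2 fold changes (parvocellular minus magnocellular).

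The same comparison in the nondeprived layers (8 parvocellular and 4 magnocellular arrays) called 469 probe sets (1.25%), 317 higher in parvocellular (0.843%) and 152 higher in magnocellular layers (0.404%). Of the 86 called in deprived layers, 85 had the same sign in nondeprived layers and 58 were also called there, which is 67.4% of the deprived and 12.4% of the nondeprived calls. Of the 469 called in nondeprived layers, 419 had the same sign in deprived layers. The share with the same sign over all probe sets was not computed. The difference between the 2 layer-class effects was itself tested, and limma called 0 probe sets, with 2540 (6.75%) at an unadjusted p below 0.05. Of the 24 leading genes, 10 of the 12 higher in parvocellular layers and 9 of the 12 higher in magnocellular layers also passed in nondeprived layers.

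For SCN3B and SCN2A the log2 fold changes in nondeprived layers were 2.24 (SE 0.35, limma adjusted p = 0.00518) and 1.33 (SE 0.18, limma adjusted p = 0.00177), and the differences between deprived and nondeprived effects were 0.23 (95% interval -0.66 to 1.11, adjusted p = 0.94) and 0.11 (95% interval -0.65 to 0.86, adjusted p = 0.971). FGF11 showed a log2 fold change of -1.28 (SE 0.14, limma adjusted p = 0.00042) in nondeprived layers, with a difference of -0.99 (95% interval -1.52 to -0.46, adjusted p = 0.54). Its parvocellular mean was 344 in deprived and 1135 in nondeprived layers, and its magnocellular mean was 1684 and 2788. AGT had 3.05 (SE 0.20, limma adjusted p = 2.73e-06) in nondeprived layers and a difference of -1.23 (95% interval -1.75 to -0.71, adjusted p = 0.51), with magnocellular means of 1393 in deprived and 339 in nondeprived layers. SPON2 had -4.63 (SE 0.41, limma adjusted p = 7.39e-05) and a difference of 2.53 (95% interval 1.30 to 3.76, adjusted p = 0.519). None of these differences passed after adjustment.

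Among genes whose parvocellular excess was smaller in deprived than in nondeprived layers, the smallest unadjusted p was that of COL13A1, a transmembrane collagen. Its deprived magnocellular signals were 1928, 181, 3012 and 393, and its parvocellular signals ran from 954 to 2789.6 with a median of 1616. Both magnocellular arrays at 2 months were at the level of the parvocellular arrays, while those at 4 months were far below. The deprived effect was 0.98 (SE 0.34, limma adjusted p = 0.336), the nondeprived effect 3.24 (SE 0.19, limma adjusted p = 1.62e-06) and the difference -2.25 (95% interval -3.11 to -1.39, adjusted p = 0.265). Of the leading genes, CADM2, REM2, TRIM58, RBM11 and SLC12A1 were called in deprived layers and not in nondeprived layers. In nondeprived layers CADM2 and REM2 had -0.23 (SE 0.14, limma adjusted p = 0.565) and 0.22 (SE 0.28, limma adjusted p = 0.83). Their differences of -1.0 (95% interval -1.56 to -0.45, adjusted p = 0.54) and 1.34 (95% interval 0.50 to 2.18, adjusted p = 0.66) did not pass. TRIM58, RBM11 and SLC12A1 had 0.75, -0.73 and -2.98 there (limma adjusted p = 0.22, 0.136 and 0.0554), and their differences did not pass either.

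**Figure D4:**
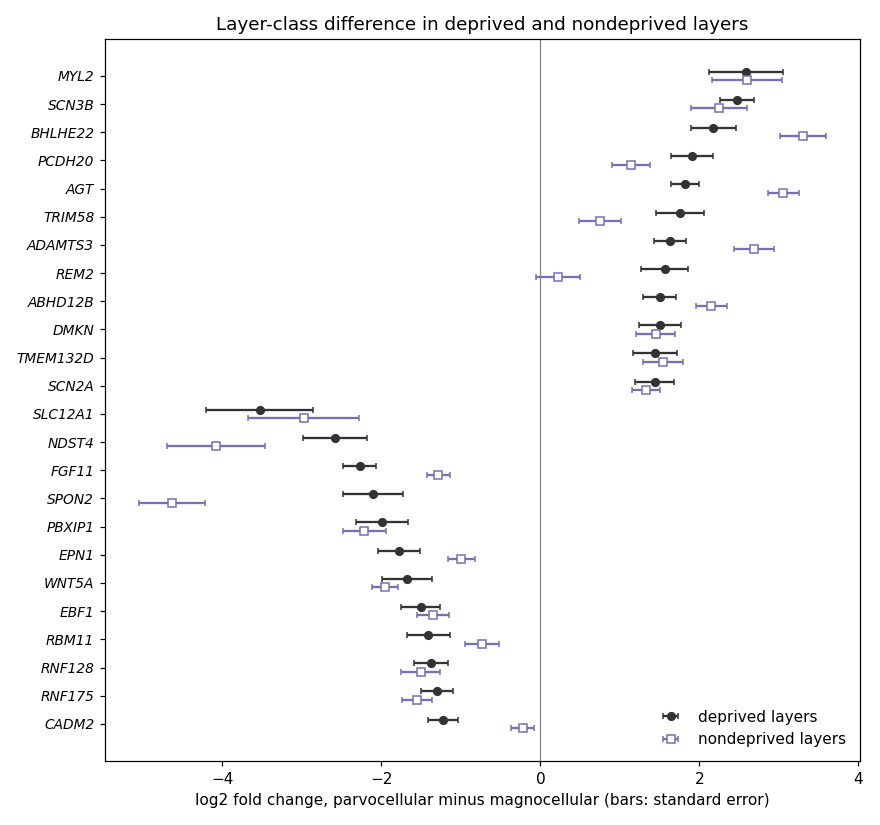
Log2 fold change between parvocellular and magnocellular layers (parvocellular minus magnocellular) of the 24 leading genes in deprived layers (filled circles) and nondeprived layers (open squares), with bars for the standard error of the limma fit (8 and 4 arrays in each). All 24 genes were chosen from the deprived comparison, and in nondeprived layers 12 of them had the larger size, 6 in each direction.

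The size of the layer-class effect was also compared between the 2 animals and between the 2 sides, within the deprived arrays. For 4 against 2 months 0 probe sets were called with limma, with 1997 (5.31%) at an unadjusted p below 0.05, and for contralateral against ipsilateral LGNs 0 were called, with 2370 (6.3%). Of the 8 genes named for duration, MYL2 had the smallest unadjusted p. Its difference within an LGN was 1.14 and 1.00 in the contralateral and ipsilateral LGN at 2 months and 4.39 and 3.82 at 4 months. The difference of 3.04 (SE 0.53, unadjusted p = 4.51e-05, adjusted p = 0.566) did not pass. Between sides, IL12RB2, a cytokine receptor subunit, had differences of 2.01 and 1.65 in the contralateral LGNs and -0.36 and -0.80 in the ipsilateral LGNs at 2 and 4 months, a difference of 2.42 (SE 0.35, adjusted p = 0.0788) that also did not pass. SCN3B had differences of 1.97, 3.01, 2.05 and 2.85 in the contralateral LGN at 2 and 4 months and the ipsilateral LGN at 2 and 4 months. FGF11 had -2.22, -2.16, -2.51 and -2.20 in the same order. Both were named on the condition of 1 direction across the 4 LGNs, so their shared direction adds no support.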

How the data were processed

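RNA of laser-captured LGN layers was measured on 1 oligonucleotide array per layer after 2 rounds of amplification. The deposited values are signal intensities on a linear scale, which the authors computed with GCOS and brought to a common mean, which without the top and bottom 2% of values was 500.04. Presence calls were not used here. Of 52865 probe sets, 99 were controls, and 37623 were tested because any of the 24 arrays reached a signal of 100. Gene symbols came from the platform table, with 1 symbol for 24956, several for 361 and none for 27449 of 52766 probe sets. No depth applies, and the number of arrays limits the precision.

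Signals under 1 were set to 1 and log2 was taken. The software was limma 3.58.1 (R 4.3.3, statmod 1.5.0). Models held the LGN as a fixed block, and the prior variance was allowed to follow the mean signal (trend). Named genes are, in each direction, the 12 with 1 symbol with the largest called log2 fold change, one direction across the 4 LGNs and a mean signal reaching 100 where it was higher, with the brightest probe set of a gene, and list members that passed or had the smallest p. The differences between eyes, months and sides used 4 genes per direction. Of 831 genes on the lists, 247 had no named probe set. The groups, lists and tests were chosen with earlier results of these data known. Alternatives were other scalings, floors, filters, blocks and covariates, and each array left out. The actin ratio as a covariate and the lists without the block were added after seeing the data. The LGN block pairs layers of the same LGN. After removal of group means, each magnocellular array correlated more with parvocellular arrays of its own LGN (mean 0.10 to 0.22) than with those of other LGNs (-0.08 to -0.04).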

Additional observations from a re-analysis of the deposited data

Results flagged for a closer look

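For 24 leading genes and the GAPDH ratio, 50 groups of signals were tested for a single array far from the rest of its group on the log2 scale, and 5 stood apart, where chance flags about 1 in 20. In parvocellular arrays, ABHD12B was 1533 in layer 5 of the ipsilateral LGN at 2 months, against 687 to 939.9 in the other 7, and WNT5A was 113 in layer 6 of the contralateral LGN at 2 months, against 276 to 593. In magnocellular arrays, layer 1 of the contralateral LGN at 4 months was low for NDST4 (271 against 458 to 500.03) and for RNF128 (473 against 615 to 620.2). CADM2 was 4529.8 in the degraded layer 2 array at 2 months, against 1879 to 2124.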

How the results depend on the processing

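None of the 24 leading genes reversed under any alternative. They were named on the condition of 1 direction across the 4 LGNs, and the alternatives reused the same deprived arrays, so the lack of reversals adds no support. Their median size was 1.71 as reported, 1.69 with the GAPDH ratio as a covariate and 1.70 without the degraded array. Counts were less stable. Against 86 calls in deprived layers, 49 were made after median scaling, 6 without the trend, 23 with no replicate block (LGN left out), 20 with the GAPDH ratio and 13 with the actin ratio as a covariate, 137 without the degraded array, 1 at 2 months alone, 67 at 4 months alone, 0 in ipsilateral LGNs alone (3617 at an unadjusted p below 0.05), 18 in contralateral LGNs alone, 5 with layers 3 and 4 alone, 4 with layers 5 and 6 alone and 367 with all 24 arrays in 1 fit. Leaving out each array gave 11 (without layer 1 of the contralateral LGN at 4 months) to 137. Beside the degraded array, the count moved by over 1.5 times without layer 3 of the ipsilateral LGN at 2 months (42) and without any of the 6 arrays at 4 months (layer 2, 55; layer 3, 51; layer 5, 53; layer 4, 49; layer 6, 36; layer 1, 11). Of the 24 genes, 21 passed after quantile normalization, 14 after median scaling, 14 with signals under 50 set to 50, 6 with the GAPDH ratio, 3 without the trend and 20 without the degraded array, and 4 (SCN3B, AGT, ADAMTS3 and FGF11) passed in each of the 12 fits without 1 array, where RBM11 passed in 0, TMEM132D in 1, SLC12A1 in 2 and REM2 in 3. Median scaling shifted the median of all probe sets by 0.27.

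In nondeprived layers 469 became 147 after median scaling, 115 without the trend, 215 with no replicate block and 761 with array weights, and 201 to 556 with 1 array left out. The difference between the deprived and nondeprived effects stayed at 0 to 1. The difference between months reached 1363 and that between sides 1426 when an array was left out (lowest 0), in the fits that left the degraded array as the only magnocellular one at 2 months or on the ipsilateral side, and 4 were called between sides with the animal as the block. Of 487 list genes, 8 became 4 with signals under 50 set to 50, 2 without the trend, 3 with no replicate block, 3 with the GAPDH ratio and 13 without the degraded array.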
